A study of Mus musculus with 12 samples.

Results

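Lysosomes are the acidic organelles in which cells take apart proteins, sugars and lipids. Their lumen holds cathepsins, which are proteases, and other acid hydrolases, and their membrane carries glycoproteins such as LAMP1 and LAMP2. Autophagy delivers part of the cell's own content to them: a membrane grows around a cargo, closes into an autophagosome and fuses with the lysosome. The kinase complex mTORC1, which works at the lysosome surface and is blocked by rapamycin (RAPA), restrains autophagy and holds the transcription factors TFEB, TFE3 and MITF out of the nucleus. These factors bind CACGTG-type sites near lysosomal genes.

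Genes of this system were followed by RNA-seq in whole skin of BALB/c mice. The set holds 43 of the 52636 genes in the count table. They were chosen by symbol as known genes of the lysosome and of autophagy, in 3 classes: 19 genes of the lysosomal membrane and hydrolases, 18 genes of the autophagy machinery and 6 regulators of transcription and mTORC1. All 43 were found by their Ensembl identifiers and all 43 passed the filter on low counts, the lowest count of any of them in any library being 19, for Rragd.

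The mice were 8 weeks old in the study's model and fell into 4 groups with 3 independent samples each and 1 library per sample. Control mice received vehicle in the back skin. LL37 mice received 40 µl of LL37, a peptide cut from human cathelicidin, by intradermal injection 2 times a day for 2 days, as a short model of rosacea-like inflammation. The control + RAPA and LL37 + RAPA mice were also given rapamycin, which the study describes for BALB/c mice as 4 mg/kg per day into the peritoneum, without naming the route for the sequenced animals. No allele is altered in any group, and each library is a mixture of all cell types of the excised skin.

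Libraries held between 15734559 and 23271784 gene counts. In a principal component analysis the first axis took 68.3% of the variance and placed LL37 replicate 3, at 64.4, apart from LL37 replicates 1 and 2, at 133 and 129, so some of the results are also given without it. CPM are counts scaled by library size and composition. Summed CPM of 10 keratinocyte genes lay between 29900 and 38600 in control and between 30700 and 37500 in control + RAPA. They lay between 34200 and 48700 in LL37 and between 30000 and 32100 in LL37 + RAPA. Those of 10 fibroblast genes lay between 2790 and 6090 in control and 4030 and 5540 in LL37. Summed CPM of 15 skeletal muscle genes lay between 33000 and 48000 in control, 35000 and 63500 in control + RAPA, 2670 and 6040 in LL37 + RAPA, and only 27.8 and 702 in LL37, where Tnnc2 stood at or under a floor of 3 counts in all 3 libraries. The 10 adipocyte genes summed to between 3820 and 6090 CPM in control and between 583 and 1310 in LL37. The 12 macrophage genes went the other way, from between 785 and 1370 in control to between 2220 and 3080 in LL37, and the 10 neutrophil genes from between 51.6 and 119 to between 289 and 2600. LL37 replicate 3 had the lowest neutrophil sum of the LL37 libraries, 289 CPM beside 1854 and 2604 in replicates 1 and 2. It also had the highest muscle sum, 702 CPM beside 27.8 and 29.2. How far these mixtures enter the results that follow was not tested, and in whole skin fewer cells of a type and less RNA per cell cannot be told apart.

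**Figure D1:**
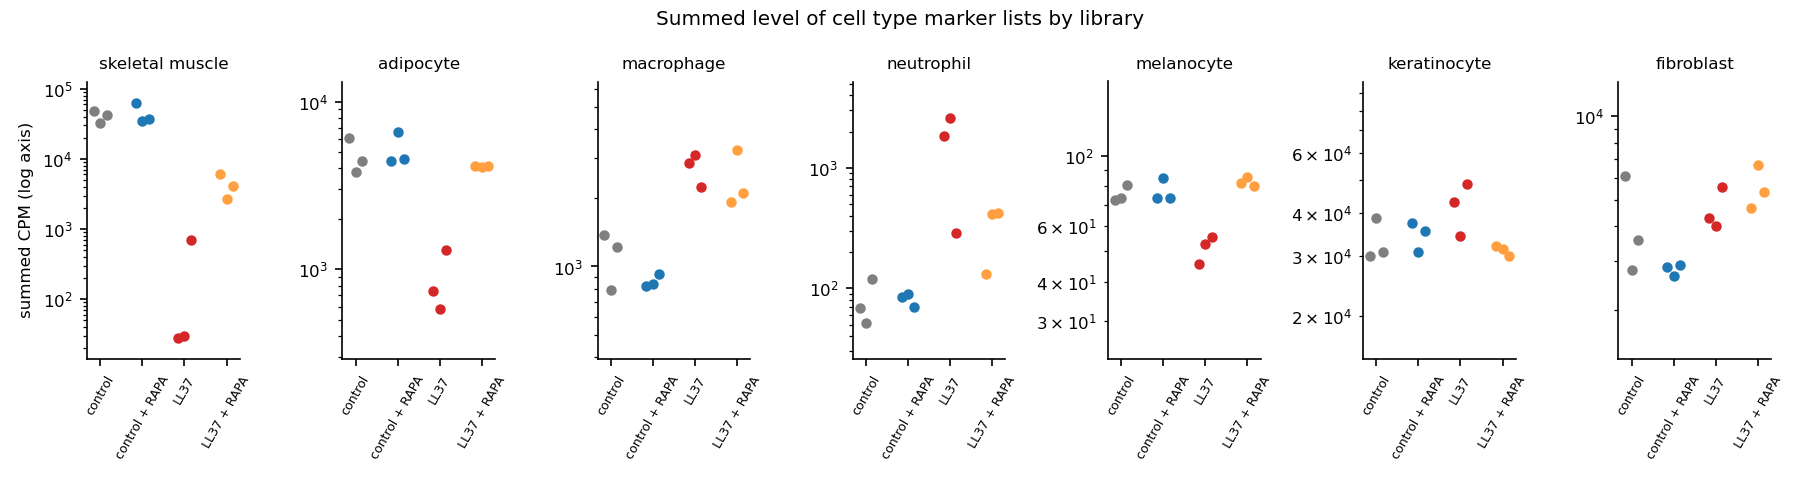
Each point is the summed CPM of a marker list in 1 library, on a log axis with its own range in each panel, by group. Skeletal muscle genes run from between 33000 and 48000 CPM in control to between 27.8 and 702 in LL37, and the macrophage and neutrophil lists are higher in LL37 than in control.

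A window from 250 bases before to 50 bases after a start given by RefSeq (build GRCm38.p6) was at hand for 37 of the 43 genes. This start can differ from the gene start in GENCODE, and the windows of Ctsl and Atg7 lie wholly inside the GENCODE genes. The motif CACGTG, which reads the same on both strands, was in the windows of 12 of these 37 genes (32.4%), against 8.09% of all 27025 genes with a window. By class it was found in 8 of 17 lysosomal genes, 3 of 14 autophagy genes and 1 of 6 regulators. The longer form GTCACGTG, searched on both strands and always holding a CACGTG, was in 8 of the 37 (21.6%) against 2.55% of all genes.

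The windows of 6 lysosomal genes are shown because they hold the motif and yet the genes differ in response, as the expression results show: Gla and Ctsl were higher after LL37, Gaa and Mcoln1 were lower, and Lamp1 and Ctsd did not pass the test. Each run of 30 bases is written 5′ to 3′ on the strand of the gene, with CACGTG in capitals.
Lamp1, chr8:13159096-13159125, plus strand: atatCACGTGgtccagcgccCACGTGatgc
Lamp1, chr8:13159127-13159156, plus strand: gactggCACGTGaccacatCACGTGcggaa
Ctsd, chr7:142387908-142387937, minus strand: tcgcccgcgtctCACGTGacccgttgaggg
Gla, chrX:134601215-134601244, minus strand: taagcgattgatCACGTGagcatctacgtc
Gla, chrX:134601182-134601211, minus strand: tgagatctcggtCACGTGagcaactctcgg
Ctsl, chr13:64370739-64370768, minus strand: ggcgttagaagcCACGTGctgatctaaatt
Gaa, chr11:119267811-119267840, plus strand: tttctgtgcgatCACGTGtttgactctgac
Mcoln1, chr8:3500436-3500465, plus strand: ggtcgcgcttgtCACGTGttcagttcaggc
Mcoln1, chr8:3500462-3500491, plus strand: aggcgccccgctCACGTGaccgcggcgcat
Counted from the RefSeq start, Lamp1 had 4 CACGTG sites, at positions -61, -45, -28 and -15, and Gla had 2, at -227 and -194. Mcoln1 also had 2, at -71 and -45, Ctsd had 2, at -245 and -98, and Gaa and Ctsl had 1 each, at -140 and -236. A match of letters is a description and does not show that a factor binds there.

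In control skin, compared per kilobase of exon, prosaposin (Psap), the precursor of the saposins that help to degrade sphingolipids, was the most abundant of the 43 at 478 ± 63.2 CPM per kb (SD, n = 3). The aspartic protease cathepsin D (Ctsd) came next at 238 ± 15, and then Map1lc3a, one of the LC3 proteins that are tied to lipid in the autophagosome membrane, at 180 ± 4.18 CPM per kb. Each of these 3 stood apart from the next by more than their SDs. The cysteine protease cathepsin B (Ctsb, 150 ± 24.2), Lamp1 (149 ± 0.507) and the autophagy receptor p62 (Sqstm1, 148 ± 32.9) followed and did not differ beyond their spread. Gla, α-galactosidase A, was lowest at 2.61 ± 0.381 CPM per kb.

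After LL37 the order changed. Psap stayed first at 619 ± 20.1 CPM per kb, followed by Ctsb at 327 ± 13.3, cathepsin S (Ctss) at 283 ± 39.0 and Ctsd at 273 ± 8.15, of which Ctsb and Ctss, and Ctss and Ctsd, overlapped in their SDs. Sqstm1 stood at 64.3 ± 5.94, in place 12, and Rragd, which encodes the RagD GTPase that helps to recruit mTORC1 to the lysosome, was last at 0.368 ± 0.222 CPM per kb. All genes of the lysosomal class together took between 0.45 and 0.537% of counts in control and between 0.81 and 0.846% in LL37. The share of the autophagy class was between 0.181 and 0.207% in control and between 0.17 and 0.174% in LL37.

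LL37 vs control addresses what the peptide injection changes. Of the 43 genes, 24 (55.8%) passed an adjusted p of 0.05 (edgeR quasi-likelihood test, Benjamini-Hochberg adjustment over 17993 tested genes), where 42.6% of all tested genes did. The classes moved differently. Of the 19 lysosomal genes 12 were higher in LL37 and 2 lower, with a median log2 fold change of 0.52. Of the 18 autophagy genes 0 were higher and 5 lower, with a median of -0.11. Of the 6 regulators 1 was higher and 4 lower, with a median of -0.77. Over all tested genes 21.0% were higher and 21.6% lower, and the median was -0.0049. With a log2 fold change beyond 1 as well, 8 of the 43 were called, 4 in each direction, against 19.5% of all genes. The LL37 and control libraries did not overlap for 32 of the 43 genes (74.4%), against 49.7% of all genes. With libraries scaled by their totals alone, which put the median of all genes at 0.082, the split of the 43 was 17 higher and 9 lower in place of 13 and 11. The autophagy class then gave 3 higher and 5 lower. It gave 2 higher and 5 lower with the size factors of DESeq2, with its Wald test or with a filter of 10 counts in every library. Over all genes 7784, 7701 and 8012 of 17993 and 6681 of 14760 were called in these 4 settings. Without LL37 replicate 3 the lysosomal class gave 11 higher and 2 lower, while the autophagy class gave 5 higher and 7 lower. In that fit 8792 of 18396 tested genes were called, against 7668 of 17993 with all libraries.

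**Figure D2:**
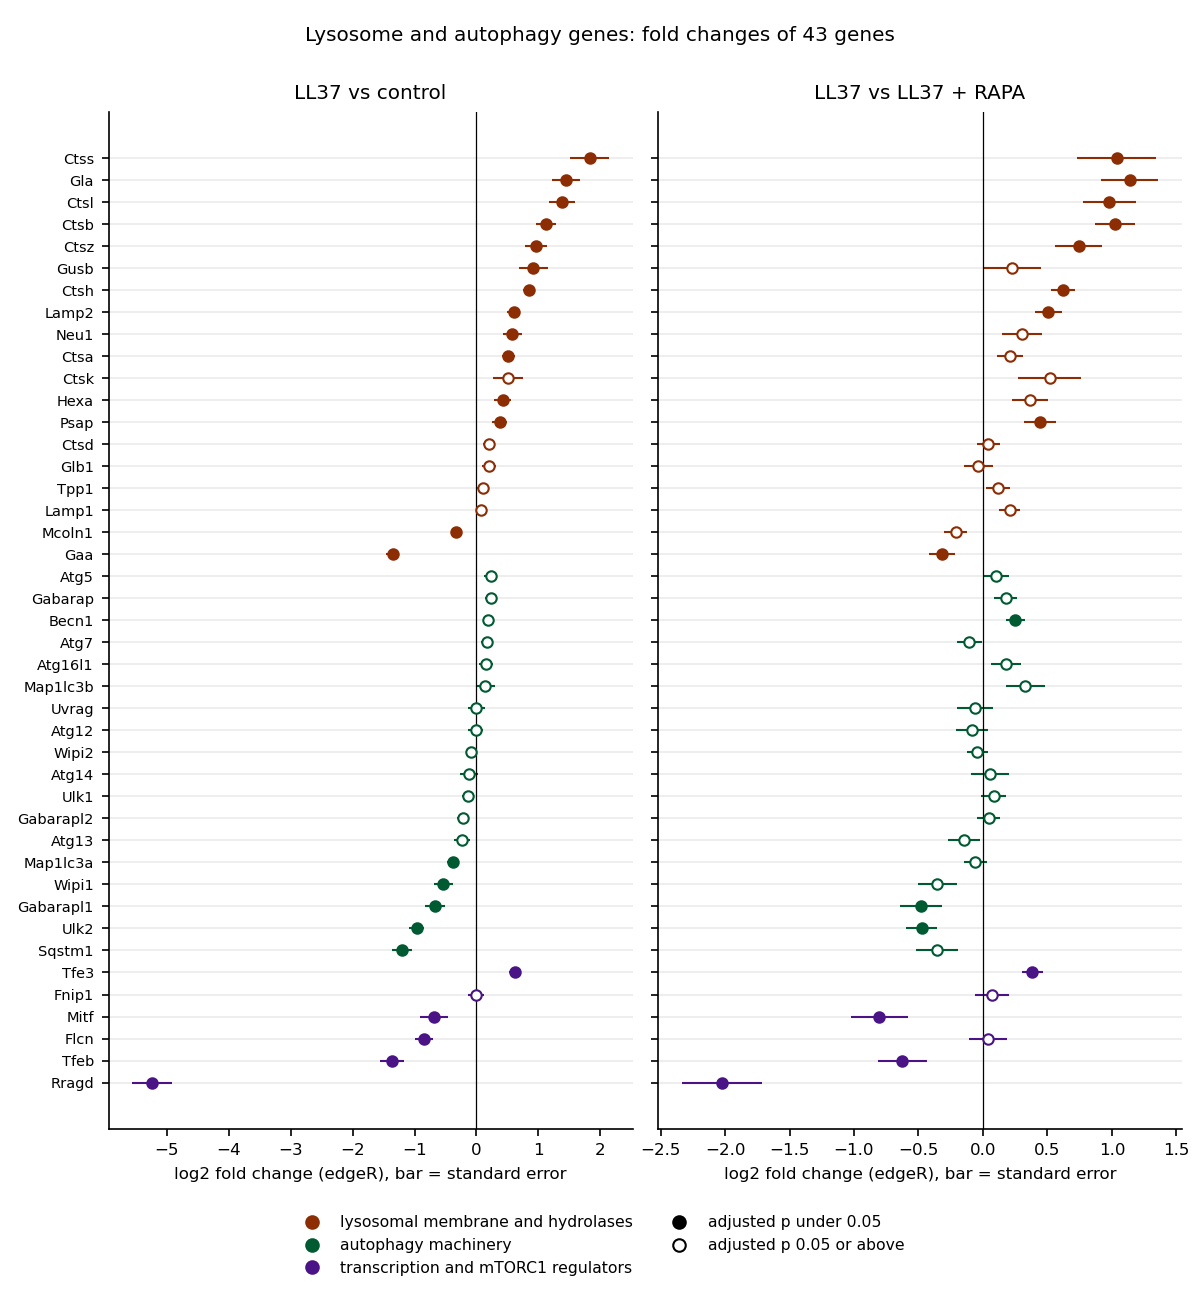
Log2 fold changes of the 43 genes from edgeR, with standard errors as bars, for LL37 vs control in one panel and for LL37 vs LL37 + RAPA in the other; colours mark the 3 classes and filled points have an adjusted p under 0.05. The 2 panels share the LL37 libraries and have different horizontal scales. Most lysosomal genes lie right of 0 in LL37 vs control (17 of 19), and Rragd lies farthest left at -5.23.

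The cysteine cathepsins were among the genes that rose. Ctss, a protease that trims the invariant chain of MHC class II in antigen-presenting cells, had 138, 69.8 and 118 CPM in the control libraries and 429, 326 and 399 CPM in LL37. All LL37 values were above all control values, and the log2 fold change was 1.82 (SE 0.31, adjusted p = 0.00077, edgeR). Ctsl, cathepsin L, had 433, 332 and 285 CPM in control and 902, 995 and 839 CPM in LL37, again without overlap, a log2 fold change of 1.38 (SE 0.21, adjusted p = 0.00036). The annotation places exons of other genes over part of Ctsl (Gm49230), Ctsd (Gm49369) and Glb1 (Tmppe) on the same strand, so the counts of these 3 genes are uncertain. Exons on the other strand lie over part of 11 genes: Lamp1, Ctsa, Ctsb, Ctsl, Ctsz, Hexa, Sqstm1, Map1lc3b, Gabarapl1, Becn1 and Uvrag. As the strand setting of the counting is not given, their counts may be uncertain too.

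Ctsb had 1067, 777 and 882 CPM in control and 2068, 1914 and 1951 CPM in LL37. Its libraries were separate, with a log2 fold change of 1.12 (SE 0.15, adjusted p = 0.00020, edgeR). Ctsh, cathepsin H, an aminopeptidase, had 99.8, 95.3 and 104 CPM in control and 188, 157 and 195 CPM in LL37, a log2 fold change of 0.85 (SE 0.10, adjusted p = 4.8e-05). Cathepsin Z (Ctsz) rose by 0.96 and Ctsa, the carboxypeptidase that shields β-galactosidase and sialidase from degradation, by 0.52 on the log2 scale. Cathepsin K (Ctsk), the collagen-cleaving protease known from osteoclasts, had 155, 80.5 and 122 CPM in control and 178, 174 and 155 CPM in LL37. The lowest LL37 library of Ctsk and the highest control library stood at about the same level, and at a log2 fold change of 0.51 (SE 0.25, adjusted p = 0.12) it did not pass the test, although it did without control replicate 1 (0.74, adjusted p = 0.041).

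Among the glycosidases, Gla had 7.87, 7.74 and 9.96 CPM in control and 29.1, 21 and 19.6 CPM in LL37. The groups were separate, and Gla rose by 1.44 on the log2 scale (SE 0.22, adjusted p = 0.00044, edgeR). Gusb, β-glucuronidase, had 45.9, 32.6 and 33.4 CPM in control and 64.1, 80.3 and 67.1 CPM in LL37, a log2 fold change of 0.92 (SE 0.23, adjusted p = 0.0070). Neu1, the lysosomal sialidase, rose by 0.58, and Hexa, the α subunit of β-hexosaminidase, by 0.42. The calls of Hexa and Psap (0.37) were lost when single libraries were left out, Hexa without control replicate 2 or 3 or LL37 replicate 3, and Psap without control replicate 2 or 3 or LL37 replicate 1. Glb1, β-galactosidase, at 0.20 and Tpp1, tripeptidyl peptidase, at 0.10 did not pass the test, nor did Ctsd at 0.20 (adjusted p = 0.10).

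Gaa, the acid α-glucosidase that degrades glycogen in the lysosome, ran against the other hydrolases. It had 176, 141 and 162 CPM in control and 59.8, 59.7 and 68.3 CPM in LL37. Every LL37 library lay under every control library, and Gaa fell by 1.35 on the log2 scale (SE 0.10, adjusted p = 4.0e-06, edgeR), a 2.55-fold lower level. Skeletal muscle genes moved in the same direction in the same libraries. The part of muscle in the change of Gaa was not tested.

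The membrane proteins did not move as one. Lamp1, the abundant glycoprotein of the lysosomal membrane, had 401, 398 and 400 CPM in control and 413, 427 and 419 CPM in LL37. The groups were separate but close, with a log2 fold change of 0.07 (SE 0.08, adjusted p = 0.51, edgeR). Lamp2, whose splice forms act in chaperone-mediated autophagy and in fusion with autophagosomes, had 229, 238 and 247 CPM in control and 401, 364 and 319 CPM in LL37, and it rose by 0.60 (SE 0.10, adjusted p = 0.00085). Mcoln1, a lysosomal calcium channel, fell by 0.32 on the log2 scale (SE 0.09, adjusted p = 0.011).

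**Figure D3:**
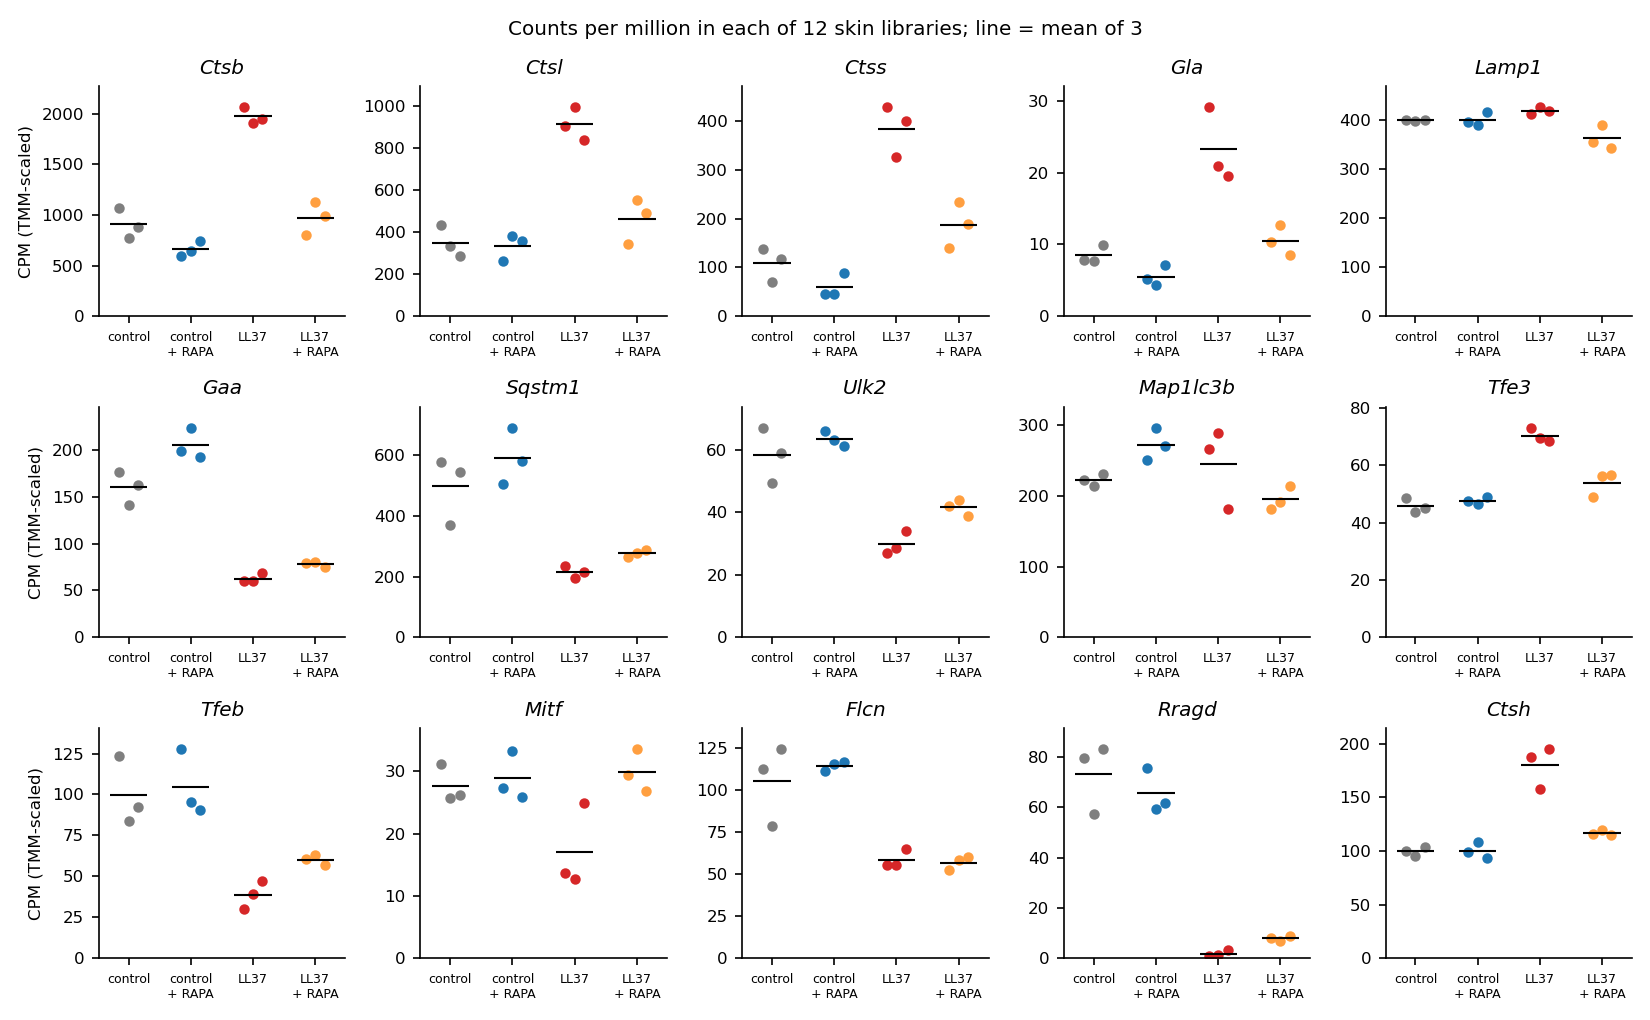
CPM (scaled by TMM) of 15 genes in each of the 12 libraries, with each vertical axis starting at 0 and its own range; points are libraries and lines are means of 3. Ctsb, Ctsl, Ctss and Gla are highest in LL37, Gaa, Sqstm1 and Ulk2 are lower in both LL37 groups than in both control groups, and Rragd lies between 1.03 and 3.2 CPM in LL37.

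In the autophagy class the largest fall was that of the cargo receptor Sqstm1. It had 576, 371 and 544 CPM in control and 236, 196 and 215 CPM in LL37. The groups did not overlap, and Sqstm1 fell by 1.20 on the log2 scale (SE 0.17, adjusted p = 0.00019, edgeR). Ulk2, one of the paired kinases that start autophagy, had 67.1, 49.5 and 59.0 CPM in control and 27.1, 28.7 and 34.1 CPM in LL37, and it fell by 0.97 (SE 0.12, adjusted p = 0.00012). Its paralog Ulk1, at -0.13, did not pass the test (adjusted p = 0.30).

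The proteins of the LC3 and GABARAP family that coat the autophagosome differed from each other. Map1lc3a had 209, 218 and 211 CPM in control and 166, 169 and 154 CPM in LL37, and it fell by 0.39 on the log2 scale (SE 0.09, adjusted p = 0.0044, edgeR). Map1lc3b, the form most used as a marker of autophagosomes, had 222, 213 and 231 CPM in control and 266, 289 and 181 CPM in LL37. LL37 replicates 1 and 2 were above all control libraries and replicate 3 below them, so the log2 fold change was 0.14 (SE 0.15, adjusted p = 0.47) with replicate 3 and 0.35 (adjusted p = 0.014) without it. Gabarapl1 fell by 0.67, while Gabarap at 0.23 and Gabarapl2 at -0.22 did not pass the test.

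Wipi1, which binds the lipid mark of the growing membrane, fell by 0.54 on the log2 scale, a call that was lost without control replicate 1 or LL37 replicate 1. The other 9 autophagy genes, which are Becn1, Uvrag and Atg14 of the lipid kinase complex, Atg5, Atg7, Atg12 and Atg16l1 of the conjugation system, the ULK partner Atg13 and the lipid-binding Wipi2, had log2 fold changes between -0.23 and 0.23 and did not pass the test. Without LL37 replicate 3, Map1lc3b, Gabarap, Gabarapl2, Becn1, Atg5, Atg13 and Atg16l1 were called.

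The regulators included the genes with the widest range. Tfeb had 123, 84.0 and 92.6 CPM in control and 30.1, 39.2 and 47.3 CPM in LL37. The groups were apart, and Tfeb fell by 1.36 on the log2 scale (SE 0.19, adjusted p = 0.00022, edgeR). Its relative Tfe3 had 48.6, 43.6 and 45.2 CPM in control and 73.0, 69.3 and 68.4 CPM in LL37, and it rose by 0.62 (SE 0.08, adjusted p = 0.00019). These related factors thus stood on opposite sides of their control levels in all 3 LL37 libraries.

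Mitf, which is also the master factor of melanocytes, had 31.2, 25.7 and 26.2 CPM in control and 13.7, 12.8 and 24.9 CPM in LL37. LL37 replicates 1 and 2 lay far below control and replicate 3 just below it, and the fall was 0.69 (SE 0.22, adjusted p = 0.027, edgeR). The call was lost without control replicate 1, LL37 replicate 1 or LL37 replicate 2, with the highest adjusted p at 0.116 and the fall then at 0.48. The 8 melanocyte genes summed to between 72.6 and 80.6 CPM in control and between 45.6 and 55.3 in LL37. Their part in the change of Mitf was not tested.

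Flcn, folliculin, which acts on RagC and RagD in the amino acid response, had 113, 79.0 and 125 CPM in control and 55.5, 55.6 and 64.9 CPM in LL37, and it fell by 0.85 (SE 0.14, adjusted p = 0.00079, edgeR). Its partner Fnip1 had a log2 fold change of -0.0076 and did not pass the test. Rragd had 79.5, 57.4 and 83.2 CPM in control and 1.03, 1.47 and 3.2 CPM in LL37. It showed by far the widest separation of the 43 genes, a fall of 5.23 on the log2 scale (SE 0.32, adjusted p = 1.0e-06), or a 37.6-fold lower level. Summed skeletal muscle genes, which were at least 33000 CPM in control and at most 702 CPM in LL37, moved with it, and LL37 replicate 3 was the highest LL37 library in both. That part was not tested.

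**Figure D4:**
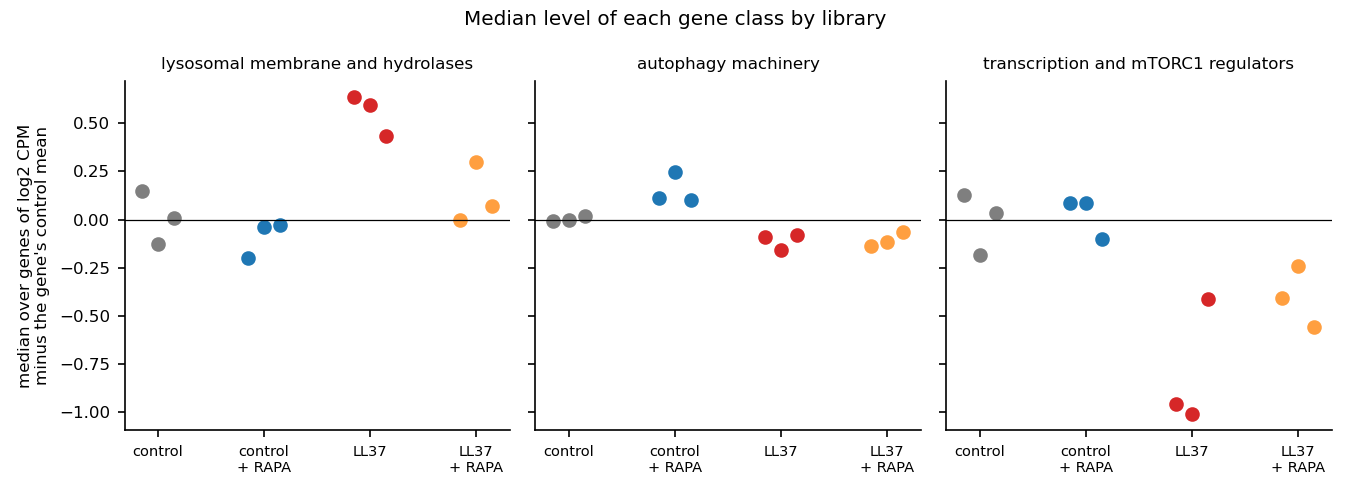
For each library, the median over the genes of a class of log2 CPM minus the mean of the same gene in control. The lysosomal class lies between 0.43 and 0.64 in LL37 and between -0.0017 and 0.30 in LL37 + RAPA, while the autophagy class stays between -0.16 and 0.25 in all 12 libraries.

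The medians by library showed the classes side by side. For the lysosomal class they were 0.64, 0.60 and 0.43 in LL37, above all other libraries, and -0.0017, 0.30 and 0.073 in LL37 + RAPA. For the autophagy class they were -0.090, -0.16 and -0.081 in LL37 and 0.11, 0.25 and 0.10 in control + RAPA. The regulators were at -0.96, -1.01 and -0.41 in LL37. The difference between the lysosomal and autophagy medians of log2 fold change in LL37 vs control was 0.62 and lay between 0.55 and 0.71 when each library was left out in turn. It is a description over genes chosen with earlier results in view.

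Genes of the same pathways outside the 43 were counted from lists. In LL37 vs control, 16 of 41 other lysosomal genes were higher and 2 lower (median 0.28), which makes 43.9% called and is near the 42.6% of all tested genes. Those that rose included the asparaginyl protease legumain (Lgmn), by 1.93, and cathepsin C (Ctsc), which activates serine proteases of granules, by 1.69, and those that fell were cathepsin F (Ctsf), by 0.91, and α-L-iduronidase (Idua), by 0.69 on the log2 scale. Lgmn had 243, 113 and 193 CPM in control and 760, 703 and 626 CPM in LL37, without overlap. Of the 22 subunits and accessory proteins of the V-ATPase, the proton pump that acidifies the lysosome, 11 were higher and 2 lower (59.1%, median 0.28). Atp6v1a rose by 0.83 and Tcirg1 by 0.91, while Atp6v0e2 fell by 1.34 and Atp6v1b1 by 1.51.

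Of 31 other autophagy genes 6 were higher and 9 lower (48.4%, median -0.17), with the kinase Tbk1 (0.68) and Wdr45b (0.62) among the former and the receptor optineurin (Optn, -1.19), a substrate of Tbk1, and Calcoco1 (-0.78) among the latter. The shares called in the remaining lists, 42.9% of 7 mitophagy genes and 44.4% of 9 genes in the Rag and Ragulator list, were also near that of all genes. Of the genes of mitophagy, the removal of mitochondria, Bnip3l (0.29) and Fkbp8 (0.30) were higher and Pink1 lower. Pink1, the kinase that marks damaged mitochondria, had 303, 274 and 242 CPM in control and 58.1, 56.3 and 64.6 CPM in LL37, a fall of 2.19 (SE 0.12, adjusted p = 5.2e-07, edgeR). In the Rag and Ragulator list, which also holds Fnip2, a gene of neither kind, Fnip2 (0.67) and Rragc (0.27) were among 3 that were higher. Rragb, a low gene at between 1.00 and 1.40 CPM in control and between 0.27 and 0.49 CPM in LL37, was the only one lower (-1.67).

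LL37 vs LL37 + RAPA asks what rapamycin changes in LL37 skin. It uses the same LL37 libraries as LL37 vs control, so a chance deviation of these libraries enters both. Of the 43 genes 16 (37.2%) were called, against 24.2% of all tested genes. Among lysosomal genes 8 were higher in LL37 than in LL37 + RAPA and 1 was lower (median 0.36), among autophagy genes 1 was higher and 2 lower (median -0.052) and among regulators 1 was higher and 3 lower (median -0.29). Over all genes 11.8% were higher and 12.4% lower, with a median of -0.0042. Beyond a log2 fold change of 1 there were 4 genes, against 10.1% of all genes. The number called fell to 7 without LL37 replicate 1 and to 7 without LL37 + RAPA replicate 1, to 10 without LL37 replicate 2, LL37 + RAPA replicate 2 or LL37 + RAPA replicate 3, and it was 20 without LL37 replicate 3. Calls over all genes moved too, from 4359 of 17993 with all libraries. They were 2089 of 18403 without LL37 replicate 1, 2171 of 18437 without LL37 + RAPA replicate 1 and 6408 of 18396 without LL37 replicate 3. In the last of these fits the lysosomal class gave 9 higher and 1 lower and the autophagy class 3 higher and 3 lower. The regulators stayed at 1 higher and 3 lower.

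Cell type markers also differed between the LL37 groups. In LL37 + RAPA the adipocyte genes summed to between 4060 and 4160 CPM, against at most 1310 in LL37. The macrophage sums overlapped, at between 1930 and 3230 CPM in LL37 + RAPA and between 2220 and 3080 in LL37. The neutrophil genes summed to between 132 and 425 CPM, against 289 to 2600 in LL37. LL37 replicate 3, at 289, lay within the LL37 + RAPA range. The keratinocyte genes summed to between 30000 and 32100 CPM in LL37 + RAPA and between 34200 and 48700 in LL37. All 10 adipocyte genes and the 14 tested muscle genes were called as lower in LL37. Called as higher were 5 of 12 macrophage genes (median 0.71), 3 of 8 tested neutrophil genes and 3 of 10 keratinocyte genes (median 0.32). Their part in the results of this comparison was not tested.

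Of the cathepsins, Ctsb, Ctsh, Ctsl, Ctss and Ctsz were lower with rapamycin. Ctsb had 801, 1131 and 988 CPM in LL37 + RAPA, about the control level and below all LL37 libraries, and the log2 fold change of LL37 over LL37 + RAPA was 1.02 (SE 0.15, adjusted p = 0.0019, edgeR). Ctsh had 116, 120 and 115 CPM in LL37 + RAPA, all under the LL37 libraries, with 0.62 (SE 0.09, adjusted p = 0.0020). Ctsl had 342, 554 and 489 CPM in LL37 + RAPA, again all under LL37, with 0.98 (SE 0.21, adjusted p = 0.0073). Ctss lay between the groups, at 141, 233 and 188 CPM, and its log2 fold change of 1.04 (SE 0.30, adjusted p = 0.030) was no longer called without LL37 replicate 1 or LL37 + RAPA replicate 1 or 3, where the highest adjusted p was 0.115.

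Gla had 10.3, 12.7 and 8.56 CPM in LL37 + RAPA, under all LL37 libraries, with a log2 fold change of 1.14 (SE 0.22, adjusted p = 0.0052, edgeR). Lamp2, at 245, 282 and 237 CPM, was also under all LL37 libraries (0.51, SE 0.10, adjusted p = 0.0067). Ctsz (0.74) and Psap (0.44) completed the lysosomal genes that were called as higher, but the call of Ctsz was lost without LL37 replicate 1 or LL37 + RAPA replicate 1, and that of Psap without either of these or LL37 + RAPA replicate 3. Gusb, with 44.7, 78.3 and 57.7 CPM in LL37 + RAPA, overlapped LL37 and did not pass the test (0.23, SE 0.22, adjusted p = 0.49). Ctsk was at 105, 147 and 103 CPM, below the LL37 libraries, but also did not pass it (0.52, SE 0.25, adjusted p = 0.15).

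Lamp1, at 356, 390 and 344 CPM in LL37 + RAPA, was lower than in every LL37 library, but its log2 fold change of 0.21 (SE 0.08) did not pass the test in edgeR (adjusted p = 0.081), while the Wald test of DESeq2 called it (adjusted p = 0.0082). Gaa had 78.9, 80.1 and 75 CPM in LL37 + RAPA, above all LL37 libraries and far below all control libraries. Its difference of -0.32 (SE 0.10, adjusted p = 0.043) was close to the limit and was not called without LL37 replicate 1 (adjusted p = 0.145). It was also lost without any other library except LL37 replicate 3, control replicates 1 and 2 and control + RAPA replicate 2.

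Of the autophagy genes, Becn1, a core subunit of the lipid kinase complex, was higher in LL37 than in LL37 + RAPA (0.25, SE 0.08, adjusted p = 0.034, edgeR). Ulk2 had 42.2, 44.0 and 38.7 CPM in LL37 + RAPA, between LL37 and control without overlap, and was lower in LL37 (-0.48, SE 0.12, adjusted p = 0.018), as was Gabarapl1 (-0.48, adjusted p = 0.049). Sqstm1 had 266, 278 and 287 CPM in LL37 + RAPA, above LL37 and below control in every library, but at -0.36 (SE 0.16, adjusted p = 0.13) did not pass the test, although it did without control replicate 2 (adjusted p = 0.0475). Map1lc3b, at 182, 191 and 213 CPM, lay above LL37 replicate 3 and below the other LL37 libraries and was not called (0.33, adjusted p = 0.13), while without that library the log2 fold change was 0.50 (adjusted p = 0.0027). The call of Becn1 was lost without LL37 replicate 1 or 2 or any 1 of the LL37 + RAPA libraries, that of Gabarapl1 without any 1 of these, any 1 control library or control + RAPA replicate 3, and that of Ulk2 without LL37 replicate 1 or 2 or LL37 + RAPA replicate 1 or 2.

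All of the regulators but Flcn and Fnip1 were called. Rragd had 8.02, 6.96 and 8.84 CPM in LL37 + RAPA, above LL37 and far below control, and the log2 fold change of LL37 over LL37 + RAPA was -2.02 (SE 0.31, adjusted p = 0.0021, edgeR). Tfe3 had 48.9, 56.1 and 56.4 CPM, under all LL37 libraries (0.38, SE 0.08, adjusted p = 0.0084). Tfeb had 60.4, 62.9 and 56.8 CPM, above LL37 and below control (-0.63, SE 0.19, adjusted p = 0.033). Mitf was back at 29.5, 33.6 and 26.8 CPM, within or above the control range (-0.80, SE 0.22, adjusted p = 0.024). The melanocyte genes summed to between 80.3 and 85.7 CPM in these libraries. Flcn stayed at 52.4, 58.3 and 60.5 CPM, overlapping LL37 (0.040, SE 0.14, adjusted p = 0.86). The call of Tfeb was lost without LL37 replicate 1 or 2 or any 1 of the LL37 + RAPA libraries, with the highest adjusted p at 0.129, and that of Mitf without LL37 replicate 1 or 2 or LL37 + RAPA replicate 1 or 2, with the highest at 0.0982.

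Of the other pathway lists, the V-ATPase list had 8 of 22 genes higher in LL37 than in LL37 + RAPA and 0 lower (36.4%, against 24.2% of all genes, median 0.22), among them Atp6v1a (0.65) and Tcirg1 (0.73). Of 41 other lysosomal genes 5 were higher and 2 lower (17.1%, under the share of all genes, median 0.069), with Lgmn at 1.16 and Ctsf at -0.83. Of 31 other autophagy genes 6 were higher and 2 lower (25.8%, near the share of all genes, median -0.032), and Tbk1 and Wdr45b, at 0.53 and 0.60, were among the higher. Pink1 had 129, 114 and 114 CPM in LL37 + RAPA, between LL37 and control, with a log2 fold change of -0.997 (SE 0.11, adjusted p = 0.0010, edgeR).

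LL37 + RAPA vs control shows what of the distance to control was left in the presence of rapamycin. Of the 43 genes 7 (16.3%) were called, against 14.0% of all tested genes, a share near the background. Over all genes 5.03% were higher and 9.01% lower, and 6.49% were called beyond a log2 fold change of 1, as were 2 of the 43. All 7 were lower than control, namely Gaa (-1.03), Sqstm1 (-0.84), Map1lc3a (-0.33), Ulk2 (-0.49), Tfeb (-0.74), Flcn (-0.89) and Rragd (-3.21). Of the 12 fits that each left out 1 library, Map1lc3a lost the call in 7, Tfeb in 4 and Ulk2 in 3. No lysosomal gene was called as higher, Ctss being at 0.79 (SE 0.30, adjusted p = 0.11, edgeR) and Gusb at 0.69 (SE 0.23, adjusted p = 0.065). With libraries scaled by their totals alone, which put the median of all genes at 0.13, the split was 5 higher and 5 lower, so the direction of small changes in this comparison depends on the scaling. Without LL37 + RAPA replicate 3 the calls were 4 and without LL37 replicate 3 they were 10. Over all genes 1594 of 18403 and 3417 of 18396 were called in these fits, against 2527 of 17993 with all libraries.

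LL37 + RAPA vs control + RAPA measures the same peptide effect in mice that all had rapamycin, and it shares no library with LL37 vs control. Of the 43 genes 19 (44.2%) were called, against 18.6% of all tested genes, 6 higher and 13 lower. Over all genes 8.20% were higher and 10.4% lower, and 8.39% were called beyond a log2 fold change of 1, as were 6 of the 43. Among lysosomal genes Ctss (1.66, SE 0.31, adjusted p = 0.0033, edgeR), Gusb (1.11), Gla (0.94), Ctsz (0.84), Ctsb (0.56) and Glb1 (0.42) rose and Gaa (-1.39) and Mcoln1 (-0.28) fell. Among autophagy genes 8 of 18 were lower and 0 higher, with a median of -0.30 against -0.0060 over all genes. They were Sqstm1 (-1.09), Map1lc3a (-0.62), Ulk2 (-0.61), Ulk1 (-0.60), Gabarapl1 (-0.59), Map1lc3b (-0.48), Gabarapl2 (-0.43) and Wipi2 (-0.31). Of the regulators Rragd (-3.04), Flcn (-1.01) and Tfeb (-0.80) fell.

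Several of these calls depended on single libraries. Of the 12 fits that each left out 1 library, Map1lc3b and Mcoln1 lost the call in 10, Ctsb, Glb1 and Wipi2 in 4, Gla and Gabarapl1 in 3 and Tfeb in 1. Markers moved in the same comparison: 10 of 12 macrophage genes were higher in LL37 + RAPA (median 1.47), with sums between 1930 and 3230 CPM against 822 to 926 in control + RAPA, and 5 of 10 fibroblast genes were higher (median 0.74), with sums between 4670 and 6680 CPM against 2650 to 2910. Of the 14 tested muscle genes 9 were lower (median -3.46). Their part in the changes of the 43 genes was not tested.

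Ulk1, the kinase that mTORC1 keeps inactive, was picked after its values were seen. It had 169, 170 and 153 CPM in control + RAPA and 109, 107 and 109 CPM in LL37 + RAPA, without overlap, beside 140, 113 and 124 CPM in control and 116, 104 and 124 CPM in LL37, which did overlap. A difference for Ulk1 between the LL37 effects without and with rapamycin did not pass the test (0.47, SE 0.14, adjusted p = 0.082, edgeR). Unlike Ulk1, Sqstm1, Ulk2, Map1lc3a and Gabarapl1 were called as lower in LL37 vs control as well. With scaling by library totals alone the split of the 43 genes was 15 higher and 8 lower in place of 6 and 13, as this scaling put the median of all genes at 0.18. The autophagy class then gave 2 higher and 4 lower, with a median of -0.12. The number called was 12 without LL37 + RAPA replicate 2, control + RAPA replicate 1 or control + RAPA replicate 2. Over all genes 1982 of 18418, 2125 of 18449 and 2382 of 18405 were called in these fits, against 3338 of 17993 with all libraries.

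**Figure D5:**
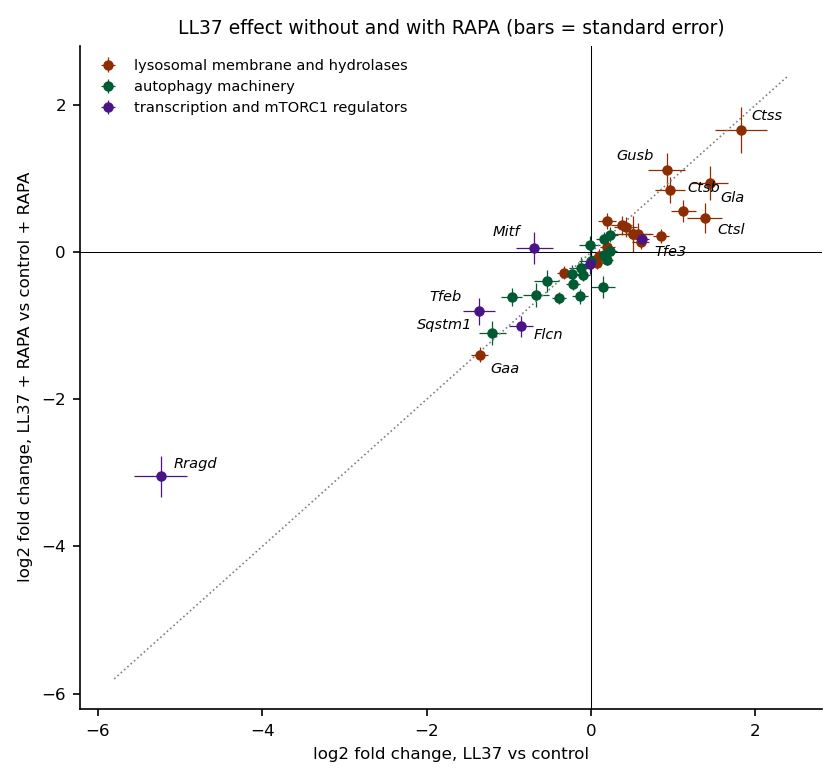
Log2 fold change of each of the 43 genes in LL37 vs control (horizontal) and LL37 + RAPA vs control + RAPA (vertical), with standard errors; the dotted line marks equal changes and colours the 3 classes. No library enters both axes. Ctss, Gaa, Sqstm1 and Flcn lie near the line, and Rragd lies above it at -5.23 and -3.04.

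Over the 43 genes the log2 fold changes of these comparisons with separate libraries had a Pearson correlation of 0.94, and 36 of 43 had the same sign. Over all 17993 tested genes the correlation was 0.79 with 12829 of the same sign. The points are genes, which are not independent replicates, and all come from whole skin, so no test is given. The medians of the muscle genes were -7.48 in LL37 vs control and -3.46 in LL37 + RAPA vs control + RAPA, and those of the macrophage genes 1.26 and 1.47.

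Control + RAPA vs control measures rapamycin in skin that had vehicle. None of the 43 genes was called by edgeR, nor was any of the 17993 tested genes (0%), while DESeq2 called 0 of the 43 and 97 of the 17993. At an unadjusted p under 0.05 there were 10 of 43 genes, against 8.65% of all genes. Autophagy genes had positive log2 fold changes in 16 of 18 cases (median 0.17), led by Gabarapl1 (0.40, SE 0.16, adjusted p = 0.54) and Ulk1 (0.38, SE 0.10, adjusted p = 0.39), and lysosomal genes in 8 of 19 (median -0.069), with Ctss at -0.87 (SE 0.31, adjusted p = 0.49) and Ctsz at -0.63 (SE 0.18, adjusted p = 0.42). None of these passed the correction, and the 12 macrophage genes, between 822 and 926 CPM in control + RAPA and between 785 and 1370 in control, had a median of -0.47. Over all tested genes 8808 of 17993 log2 fold changes were positive (median -0.0055). With libraries scaled by their totals alone the autophagy median was 0.11 and that of all genes -0.065. Without control replicate 2 the autophagy median was 0.088.

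The interaction compares the effect of rapamycin in LL37 skin with that in vehicle skin. It was called for 2 of the 43 genes (4.65%), against 3.28% of all tested genes, of which 1.13% were positive and 2.15% negative. Beyond 1 on the log2 scale it was called for 1 of the 43 and for 2.38% of all genes. For Ctsh, LL37 exceeded LL37 + RAPA while the vehicle groups overlapped, at 98.6, 108 and 93.7 CPM with and 99.8, 95.3 and 104 CPM without rapamycin, and the difference of effects was 0.63 (SE 0.13, adjusted p = 0.034, edgeR). For Rragd it was -2.19 (SE 0.40, adjusted p = 0.024), with 75.7, 59.4 and 61.5 CPM in control + RAPA. Neither call held throughout. Both were lost without control replicate 1 or 3, LL37 + RAPA replicate 1 or 3 or control + RAPA replicate 2 or 3. Ctsh was also lost without control replicate 2, LL37 replicate 1, LL37 + RAPA replicate 2 or control + RAPA replicate 1. Without LL37 replicate 3 there were 8 calls, those gained being Lamp2, Ctsl, Map1lc3b, Becn1, Tfe3 and Mitf. Over all genes the number of interaction calls, 590 with all libraries, ran from 2 without LL37 + RAPA replicate 1 to 3145 without LL37 replicate 3. With all libraries, such a difference was not shown for the other cathepsins or for Tfeb, Tfe3 and Mitf. Ctsl was at 0.91 (SE 0.29, adjusted p = 0.099, edgeR), Tfe3 at 0.44 (SE 0.12, adjusted p = 0.065) and Mitf at -0.74 (SE 0.31, adjusted p = 0.19). The calls of Ctsl, Tfe3 and Mitf thus depended on LL37 replicate 3.

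Set beside these values, CACGTG in the promoter window did not separate the directions. In LL37 vs control, 3 of the 10 lysosomal genes with a window that were higher held it (Ctsa, Ctsl and Gla), 2 of 2 that were lower (Gaa and Mcoln1) and 3 of 5 that did not pass the test (Lamp1, Ctsd and Glb1). None of the 4 autophagy genes and none of the 4 regulators that were lower held it within these 300 bases.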

How the data were processed

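RNA-seq was made from whole skin of 12 BALB/c mice. The authors deposited raw read counts per Ensembl gene for each library, without normalization. The study's methods name HTSeq as the counter, while the submitters' processing notes name HISAT2 2.0.5, StringTie 1.3.3b, featureCounts 1.5.0-p3, DESeq2 1.16.1 and the build mm10; which of the counters made the table, and its strand setting, are not given in the sources used here, so reads of antisense or overlapping genes (11 and 3 of the 43) cannot be told apart. Symbols, positions and exon lengths came from GENCODE M21, which named 52403 of 52636 genes.

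All 12 libraries were fitted together in R 4.3.3 with edgeR 4.0.16 (TMM, filterByExpr, quasi-likelihood F-test, Benjamini-Hochberg over 17993 genes), with 5 contrasts and the interaction. SE is the log2 fold change divided by the root of F. CPM are TMM-scaled. A gene was called at an adjusted p under 0.05. Precision is set by 3 libraries per group and depths of 15734559 to 23271784 counts. The floor of 3 counts covers counting error only. Scripts were tested on simulated data. Replicate numbers come from the labels, and deviations of same-numbered libraries correlated between -0.19 and 0.26 (4 of 18 above 0.1), so they were not used as pairs.

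The 43 genes, the classes and the pathway and marker lists were chosen with earlier results of these data known. Some genes of the pathways are not reported here and were left out of the lists. Genes with values in every library were Lamp1, Ctsl, Ctss, Ctsk, Sqstm1, Map1lc3b, Tfeb, Tfe3 and Mitf, those ranked by p in each direction (the first 7 for LL37 vs control, 4 for the comparison of both LL37 groups and 2 called ones elsewhere) and those with a called interaction; from each pathway list, the first 2 called in each direction. Ulk1 was added after its values were seen. Alternatives were DESeq2 1.42.0, its size factors, library totals alone, other filters, only the compared groups, a replicate block, removal of the muscle list, a limit of 1 on the absolute log2 fold change and each library left out.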

Additional observations from a re-analysis of the deposited data

Results flagged for a closer look

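A difference between the effect of rapamycin in LL37 skin and in vehicle skin passed the interaction test (edgeR, Benjamini-Hochberg adjustment) for 2 of the 43 genes and for 3 of 110 genes of the pathway lists (2.73%), against 3.28% of all tested genes, so these shares are near or under the background. Over all genes the interaction calls fell from 590 to 2 without LL37 + RAPA replicate 1, to 18 without control + RAPA replicate 3 and to 24 without control replicate 1, and Ctsh and Rragd were both lost in 6 of the 12 fits that left out 1 library. Among the 43 these were Ctsh, at 0.63 on the log2 scale (SE 0.13, adjusted p = 0.034), and Rragd, at -2.19 (SE 0.40, adjusted p = 0.024). In the lists, the V-ATPase subunit Atp6v1a was at 0.61 (SE 0.13, adjusted p = 0.034). The mitophagy receptor Bnip3 was at 1.18 (SE 0.27, adjusted p = 0.040), with 77.8, 68.5 and 61.8 CPM in LL37, 41.0, 45.6 and 42.4 in LL37 + RAPA, 70.4, 54.7 and 74.9 in control and 73.8, 127 and 80.5 in control + RAPA. The kinase Pink1 was at -0.89 (SE 0.16, adjusted p = 0.024). Summed skeletal muscle genes differ by group in the same libraries, and their part in these differences was not tested.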

How the results depend on the processing

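With an added limit of 1 on the absolute log2 fold change, the calls among the 43 genes were 8 for LL37 vs control, 4 for LL37 vs LL37 + RAPA, 2 in LL37 + RAPA vs control, 6 in LL37 + RAPA vs control + RAPA and 1 in the interaction. For the interaction, library totals alone gave 1, DESeq2 gave 6 and the replicate block gave 1 in place of 2. The labels and methods do not name the replicate numbers as pairs. With them as a block the counts were 22, 12, 7, 16 and 0 in the 5 contrasts, in place of 24, 16, 7, 19 and 0. Fits of only the compared groups are given as higher and lower in the lysosomal, autophagy and regulator classes. LL37 vs control gave 9 and 2, 0 and 4, and 1 and 3 (5716 of 17167 genes called). LL37 vs LL37 + RAPA gave 8 and 0, 0 and 1, and 1 and 1 (2463 of 17234). LL37 + RAPA vs control gave 0 and 1, 0 and 4, and 0 and 3 (3084 of 17254). LL37 + RAPA vs control + RAPA gave 9 and 1, 0 and 10, and 0 and 3 (4271 of 17180). When each library was left out in turn, the counts lay between 21 and 30 for LL37 vs control, 7 and 20 for LL37 vs LL37 + RAPA, 4 and 10 in LL37 + RAPA vs control, 12 and 20 in LL37 + RAPA vs control + RAPA, 0 and 0 in control + RAPA vs control and 0 and 8 in the interaction. Calls over all genes changed in the same fits, for LL37 vs LL37 + RAPA between 2089 of 18403 and 6408 of 18396. The cause of these changes was not tested. Over the 43 genes and all comparisons, the 12 fits that left out 1 library lost 123 calls and gained 32, with 43 lost for LL37 vs LL37 + RAPA, 39 for LL37 + RAPA vs control + RAPA, 16 for the interaction, 14 for LL37 + RAPA vs control and 11 for LL37 vs control. Under the other settings, 40 values of named genes in LL37 vs control, between the LL37 groups and in the interaction were recomputed; of 318 such values 306 kept direction and call, 11 lost the call, 1 gained it and 0 reversed. Calls near the limit, such as those of Gaa and Tfeb between the LL37 groups and of Mitf against control, were among those lost. With 3 libraries per group, small changes of the autophagy genes are at the limit of what these data can show.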
